A study of Homo sapiens with 6 samples.

Results

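The genes examined were those of the Wnt pathway: its ligands, the frizzled receptors and co-receptors, the secreted antagonists, the cytoplasmic transducers, the TCF/LEF factors and a set of feedback and target genes. They were chosen by symbol from the roles they have in the pathway, and 51 of the 14232 genes tested were members. Genes on chromosomes 8 and 13 were left out by the rule, which removed 4 genes (DKK4, FZD3, FZD6 and SFRP1, all on chromosome 8). DKK2 and LRP5 were read only by probe rows that carry several gene symbols, and NOTUM, PORCN and TCF7 had no row of their own. These 5 genes were not analysed here. RNA came from Ishikawa H cells, a line from a grade 1, highly differentiated endometrioid adenocarcinoma with a p53 mutation labelled G186T. The cells of the knockdown group (3 arrays) stably carried a short hairpin RNA (shRNA) against MTDH, which encodes metadherin, and those of the MTDH control group (3 arrays) shared the line, the mutation and the serum-containing medium. The study calls the control of this line a control shRNA, with no further detail. By the sample labels, cells that survived puromycin were grown up clone by clone and their level of the targeted protein was checked by Western blot. The sample titles call the 3 samples of each group biological replicates. The number of clones behind each group is not given, so the p-values cover only the spread among these 6 samples, and that spread may be technical.

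Wnt proteins are secreted lipid-modified ligands that bind frizzled receptors on the cell surface. In the beta-catenin branch, a frizzled and its co-receptor LRP5 or LRP6 recruit Dishevelled and Axin, the destruction complex of Axin, APC and GSK3B stops degrading beta-catenin, and beta-catenin activates target genes with TCF/LEF factors. In the beta-catenin-independent branches, ligands such as WNT5A act through frizzleds together with ROR1, ROR2 or RYK on cell polarity, movement and calcium. In the endometrium, Wnt signalling is known for its part in gland development and in the growth of endometrioid tumors, where the beta-catenin gene can be mutated.

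The deposited values are log2 expression values, 1 per transcript cluster and array. The median over the genes tested lay between 4.59 and 4.86 on the 6 arrays. MTDH, the targeted gene, fell to 5.84 ± 0.06 in knockdown cells, against 6.85 ± 0.21 in control cells (SD, n = 3 each, adjusted p = 0.029). Control replicate 3 stood apart, with correlations across genes of 0.900 to 0.955 with the other arrays, whereas the lowest correlation among the remaining arrays was 0.959. Of 15 measured epithelial markers 12 lay above the median gene, and their summed linear signal was 1440.2 to 1517.1 in knockdown cells and 1492.8 to 1630.5 in control cells. Fibroblast and smooth muscle markers were dim, with 2 of 11 above the median gene and sums of 152.6 to 177.4 in knockdown cells and 165.8 to 226.3 in control cells. Endothelial markers summed to 107.1 to 123.5 in knockdown cells and 113.9 to 172.2 in control cells. Blood cell markers summed to 84.5 to 108.4 in knockdown cells and 91.2 to 128.6 in control cells, and neural markers to 142.4 to 163.6 in knockdown cells and 143.9 to 229.9 in control cells. All lists, the epithelial one included, thus reached their highest sum in a control array. Control replicate 3 was the highest control in 11 of 11 fibroblast and smooth muscle markers and 9 of 9 endothelial markers. It was also highest in 6 of 7 blood cell and 6 of 8 neural markers, against 7 of 15 epithelial markers and 51.7% of all genes. No marker of any list passed the test, whose threshold was an adjusted p of 0.05 over all genes. Whether these markers had a part in the results below was not tested.

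WNT5A, the ligand best known for signalling without beta-catenin, was the 1 member that passed the test. Its log2 value was 3.41, 3.32 and 3.52 in knockdown cells, against 4.72, 4.91 and 4.67 in control cells. The groups lay far apart, and the highest knockdown array was more than 1 log2 unit below the lowest control array. WNT5A fell to 3.42 ± 0.10 in knockdown cells, against 4.76 ± 0.13 in control cells (SD, n = 3 each), or 2.54-fold lower. The log2 fold change was -1.34 (standard error 0.16, 95% interval -1.70 to -0.99) and passed the test (limma, adjusted p = 0.0053). In these RNA pools, fewer cells with the transcript and less transcript per cell cannot be told apart. By size it was the 13th of the 32 genes that passed and were lower. Knockdown replicates 1, 2 and 3 had 16.9, 16.9 and 17.9% of genes below WNT5A, and control replicates 1, 2 and 3 had 49.8, 56.5 and 43.1%. WNT5A thus read near the middle of the control arrays and among the dim genes of the knockdown arrays, and no detection values were used that would show whether the knockdown level was above background. With 1 array left out the log2 fold change ran from -1.39 to -1.27, and the adjusted p reached 0.0501 without control replicate 1. Control replicate 3 had the lowest of the 3 control values, and without that array the adjusted p was 0.0067. Of the measured genes next to WNT5A on chromosome 3, CACNA2D3 and LRTM1 on one side had log2 fold changes of -0.12 and 0.06. ERC2 and ERC2-IT1 on the other side had 0.64 (adjusted p = 0.19) and -0.15. None of these 4 neighbours passed, and the median over the 808 tested genes of chromosome 3 was 0.04.

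The promoter windows below show the 250 bases before the RefSeq start sites of WNT5A, the member that passed. For contrast, those of SP5 and DKK1 are shown, which are known targets of beta-catenin and did not pass. DKK1 was dim, with a mean log2 value of 2.96, below the lower quartile of the dimmest array, 3.71, so a fall could have been missed. All windows are from the build GRCh38.p14 and are written 5′ to 3′ on the strand of the gene. Capitals mark matches on either strand to the core TCF/LEF motif, CTTTGNN with A or T at each N. WNT5A had 2 listed start sites, the upstream one at chr3:55487307-55487556 and the downstream one at chr3:55481399-55481648, both on the minus strand. The SP5 window lies at chr2:170715087-170715336 and the DKK1 window at chr10:52314031-52314280, both on the plus strand.
WNT5A upstream: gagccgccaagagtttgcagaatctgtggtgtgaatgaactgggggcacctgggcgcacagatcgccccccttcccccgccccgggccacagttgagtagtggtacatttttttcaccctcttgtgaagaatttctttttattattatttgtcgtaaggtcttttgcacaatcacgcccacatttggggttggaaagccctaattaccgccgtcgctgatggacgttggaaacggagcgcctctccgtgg
WNT5A downstream: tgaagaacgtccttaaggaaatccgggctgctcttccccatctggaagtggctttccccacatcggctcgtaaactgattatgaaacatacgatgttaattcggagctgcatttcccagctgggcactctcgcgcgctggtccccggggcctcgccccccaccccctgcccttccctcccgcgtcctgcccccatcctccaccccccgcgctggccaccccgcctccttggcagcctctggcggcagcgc
SP5: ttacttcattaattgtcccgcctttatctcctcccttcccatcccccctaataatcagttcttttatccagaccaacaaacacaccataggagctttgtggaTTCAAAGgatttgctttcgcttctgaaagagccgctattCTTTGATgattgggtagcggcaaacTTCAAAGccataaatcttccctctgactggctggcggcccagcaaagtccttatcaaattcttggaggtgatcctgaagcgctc
DKK1: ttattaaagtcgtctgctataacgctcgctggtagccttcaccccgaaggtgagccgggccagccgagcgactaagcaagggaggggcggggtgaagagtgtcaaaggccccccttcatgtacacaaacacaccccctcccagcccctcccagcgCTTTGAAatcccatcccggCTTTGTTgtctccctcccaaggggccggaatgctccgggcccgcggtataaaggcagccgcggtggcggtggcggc

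SP5 held 3 matches, beginning 148, 109 and 84 bases before its start, and DKK1 held 2, at 95 and 76 bases. Neither WNT5A window held 1. The windows of LEF1, itself a target of the pathway, and of the feedback gene NKD2 held none either. A match thus did not separate targets of the pathway from WNT5A. The same letters occurred in 4199 of all 35116 RefSeq windows of this length (12%), and in 3 (6.4%) of the 47 windows that were listed for 40 of the members, those of SP5, DKK1 and TCF7L2. The AP-1 motif TGANTCA was in 6.6% of all windows and in 0 of the 47, and the NF-kB motif was in 5.2% of all windows and in 5 of the 47, those of FZD5, FZD9, TCF7L2, WNT10A and WNT4. The members' windows were rich in CpG, with a median of 23 CpG dinucleotides and 68.8% G+C, against 11 and 58.0% over all windows. The upstream and downstream WNT5A windows held 14 and 18 CpG dinucleotides. A match is only a description of the letters and says nothing of binding in these cells.

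**Figure D1:**
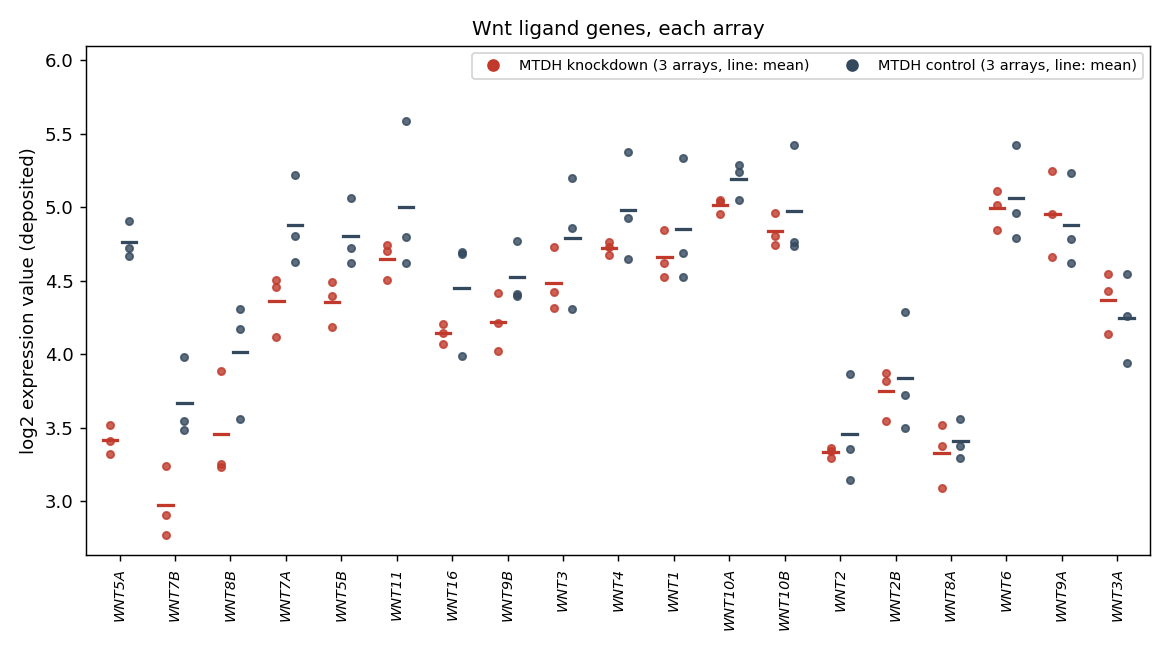
Log2 expression values (vertical axis) of the 19 Wnt ligand genes (horizontal axis, ordered by log2 fold change) on each array. Points are arrays and lines are group means, with knockdown (red) left of control (dark) for each gene. WNT5A stands out with 3.32 to 3.52 in knockdown cells and 4.67 to 4.91 in control cells.

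Among all members 1 of 51 (1.96%) passed the test and it was lower, where 0.597% of all genes tested passed in either direction and 0.225% passed and were lower. With a count of 1, the members' share cannot be read against that background. The groups did not overlap in 7 members (13.7%), against 20.0% of all genes. All 7 were lower in knockdown cells, where 11.2% of all genes were lower without overlap. The 95% interval left out 0 in 7 members (13.7%), against 14.1% of all genes. The median log2 fold change of the members was -0.17, against -0.08 over all genes, and 38 of 51 (74.5%) had a negative value, against 60.7% of all genes. The count of negative values and both medians depended in part on control replicate 3. That array was the highest of the 3 control arrays in 33 of 51 members (64.7%) and in 51.7% of all genes. Without it 11 of the 51 members changed sign, 5 of them ligands, 29 of 51 were negative and the median was -0.10, against -0.02 over all genes. Centring each array on its median left 30 of 51 negative, and the members' median was then -0.07, against 0.02 over all genes.

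Of the 19 ligands 17 were negative, with a median of -0.26. Control replicate 3 read highest of the controls in 16 of these 19. Without it 12 of 19 were negative and their median was -0.10, less negative than that of the antagonists (-0.16) or the co-receptors (-0.14) without the same array. After quantile normalization of the arrays 15 were negative. WNT7B, which acts in lung and kidney development in mice, had the next lowest value after WNT5A. It was at 3.24, 2.77 and 2.91 in knockdown cells, against 3.49, 3.55 and 3.98 in control cells. The groups did not overlap, but the gene was dim, with both means below the lower quartile of the dimmest array, 3.71. Its log2 fold change was -0.70 (95% interval -1.13 to -0.26, adjusted p = 0.18), and -0.54 without control replicate 3. WNT10A, a ligand of skin and tooth development, had the highest mean signal of the ligand rows, although the brightness of a row depends on its probes and does not order the genes by transcript number. It was at 4.96, 5.04 and 5.05 in knockdown cells, against 5.24, 5.29 and 5.05 in control cells. The highest knockdown and the lowest control array nearly touched, and the log2 fold change was -0.18 (95% interval -0.53 to 0.17, adjusted p = 0.58).

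The remaining 16 ligands ran from -0.55 to 0.12 and the lowest adjusted p among them was 0.29. Of these, 14 were negative, and WNT9A and WNT3A were positive. Some are named here after their values were seen. WNT5B, the closest relative of WNT5A, was at 4.40, 4.19 and 4.49 in knockdown cells, against 4.62, 4.72 and 5.07 in control cells. These groups did not overlap, and the log2 fold change was -0.44 (95% interval -0.84 to -0.05, adjusted p = 0.31). WNT7A, known from mouse for its role in patterning the uterus and its glands, was at 4.50, 4.46 and 4.12 in knockdown cells, against 4.804, 4.63 and 5.22 in control cells. It did not overlap either, with a log2 fold change of -0.52 (adjusted p = 0.29). WNT8B had -0.55 (adjusted p = 0.34) with overlapping groups. WNT11, another ligand of the beta-catenin-independent branch, had -0.35 (adjusted p = 0.50), and -0.06 without control replicate 3. WNT4, which is needed for the female reproductive tract, had -0.26 (adjusted p = 0.54), and -0.06 without that array. The classical beta-catenin ligands WNT1, WNT3 and WNT3A had -0.19, -0.30 and 0.12 with all arrays, against 0.05, -0.10 and 0.27 without control replicate 3. WNT3A in turn was at -0.03 without control replicate 1. The others of the 16, WNT2, WNT2B, WNT6, WNT8A, WNT9A, WNT9B, WNT10B and WNT16, lay between -0.31 and 0.07. Ligand secretion was read by 1 member, WLS, the carrier that brings Wnt proteins to the cell surface. It was at 6.65, 6.73 and 6.73 in knockdown cells, against 6.42, 6.91 and 5.95 in control cells. The knockdown arrays lay within the range of the controls, which spread widely. Its log2 fold change was 0.28 (95% interval -0.22 to 0.78, adjusted p = 0.56), and 0.04 without control replicate 3.

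**Figure D2:**
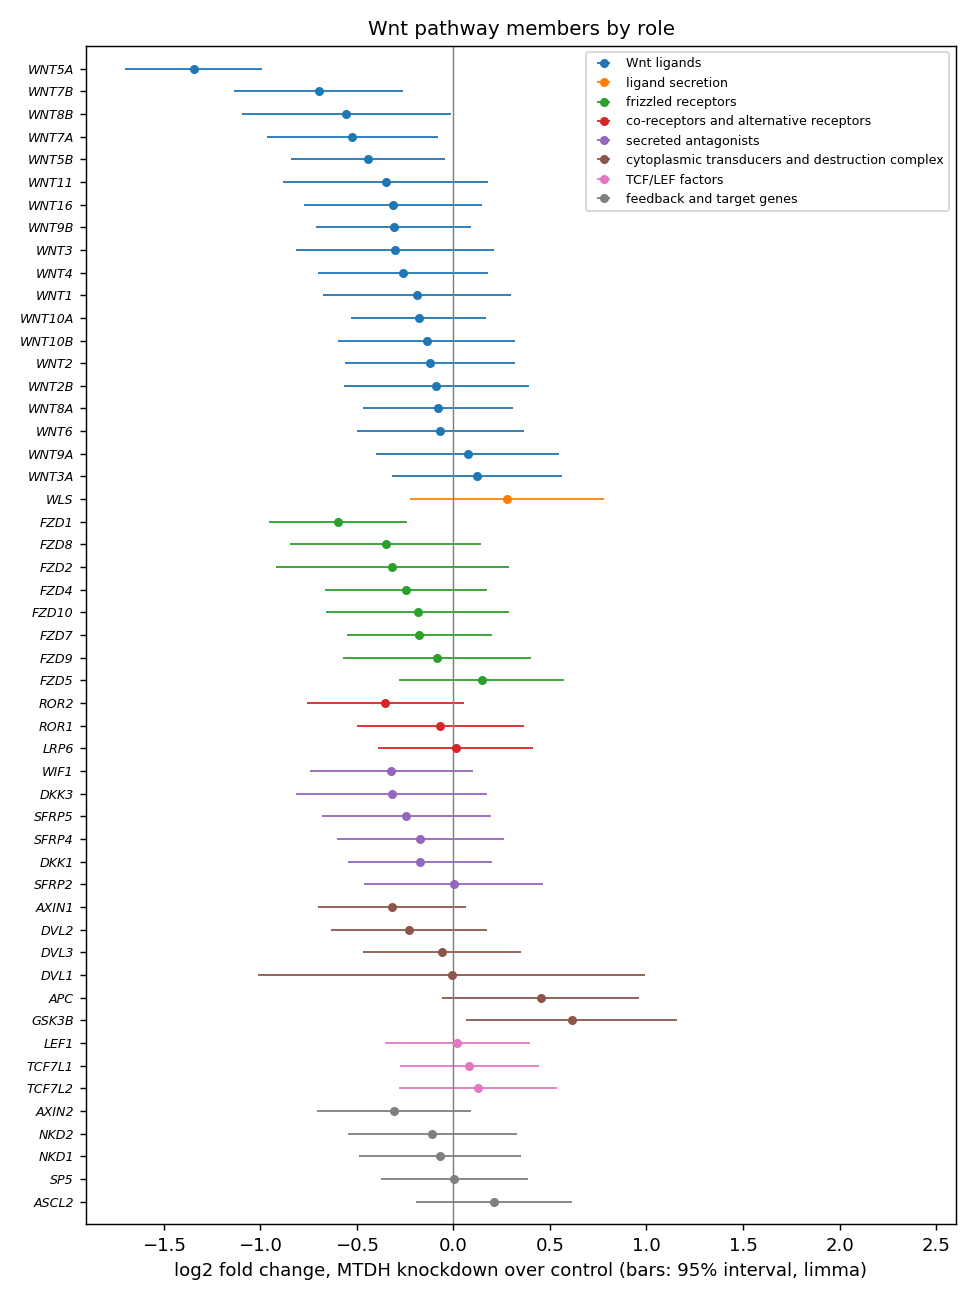
Log2 fold change of knockdown over control (horizontal axis) for the 51 members (rows), coloured by role, with bars for the 95% interval from limma. WNT5A lies at -1.34 and GSK3B, at 0.61, is farthest to the right.

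None of the 8 frizzled receptors passed. Their median was -0.21 with 7 of 8 negative, and -0.08 with 4 of 8 negative without control replicate 3. FZD1 had the largest difference, at 4.50, 4.53 and 4.46 in knockdown cells, against 4.96, 5.05 and 5.28 in control cells. The groups did not overlap and the knockdown arrays were tight. Its log2 fold change was -0.60 (95% interval -0.95 to -0.24, adjusted p = 0.17), -0.51 without control replicate 3. FZD8 was at 5.40, 4.97 and 5.67 in knockdown cells, against 5.77, 5.36 and 5.97 in control cells. The groups overlapped, and the log2 fold change was -0.35 (adjusted p = 0.47), -0.22 without control replicate 3 and -0.16 without knockdown replicate 2. FZD5, the brightest frizzled row, was at 5.87, 6.45 and 6.10 in knockdown cells, against 5.93, 6.19 and 5.86 in control cells. Knockdown replicate 2 was the highest array, and the log2 fold change of 0.15 (adjusted p = 0.71) turned to -0.01 without it. A second, dimmer row of FZD5 had 0.03. The other 5, FZD2, FZD4, FZD7, FZD9 and FZD10, ran from -0.32 to -0.08 with a lowest adjusted p of 0.54, and from -0.29 to 0.08 without control replicate 3.

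Of the co-receptors and alternative receptors, none of 3 passed. ROR2, a tyrosine kinase receptor for WNT5A, was at 3.999, 3.80 and 4.04 in knockdown cells, against 4.22, 4.08 and 4.60 in control cells. The groups did not overlap but nearly met, and the log2 fold change was -0.35 (95% interval -0.76 to 0.05, adjusted p = 0.40), -0.20 without control replicate 3. Its relative ROR1 was at 3.60, 4.15 and 4.12 in knockdown cells, against 4.14, 3.83 and 4.11 in control cells. Here the groups overlapped fully, with a log2 fold change of -0.07 (adjusted p = 0.87) that was 0.05 after quantile normalization and 0.03 after centring. LRP6, the co-receptor of the beta-catenin branch, was at 7.19, 7.15 and 6.98 in knockdown cells, against 7.20, 7.29 and 6.80 in control cells. It was among the brighter members, and its log2 fold change of 0.01 (95% interval -0.39 to 0.41, adjusted p = 0.98) was -0.18 after quantile normalization and -0.14 without control replicate 3.

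None of the 6 secreted antagonists passed, and 5 of 6 were negative with a median of -0.21. Most were dim, and only 1 of the 6, DKK3, remained when the dimmest 30% of genes were left out. WIF1, which binds Wnt proteins outside the cell, was at 3.42, 3.14 and 3.12 in knockdown cells, against 3.51, 3.28 and 3.86 in control cells. It was dim and its groups overlapped, with a log2 fold change of -0.32 (adjusted p = 0.45), -0.17 without control replicate 3. DKK3, a member of the Dickkopf family, was the brightest antagonist row, at 5.13, 4.69 and 4.65 in knockdown cells, against 5.05, 4.81 and 5.57 in control cells. The groups overlapped, with a log2 fold change of -0.32 (adjusted p = 0.50), -0.11 without control replicate 3. A second row of DKK3 was at 3.42, 3.42 and 3.53 in knockdown cells, against 4.38, 3.63 and 4.15 in control cells. On that row the groups did not overlap and the difference was larger, -0.60 (adjusted p = 0.39 in a fit of all rows). DKK1, the inhibitor that blocks LRP6, had -0.17 (95% interval -0.54 to 0.20), and the frizzled-like decoys SFRP2, SFRP4 and SFRP5 had 0.001, -0.17 and -0.24 (0.20, -0.21 and -0.15 without control replicate 3).

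In the cytoplasm none of 6 transducers and destruction complex genes passed, with a median of -0.03 that was 0.06 after centring and 0.10 without control replicate 3. GSK3B, the kinase that marks beta-catenin for degradation, had the highest value of all members. It was at 7.33, 7.70 and 7.45 in knockdown cells, against 6.98, 7.34 and 6.32 in control cells. Knockdown replicate 1 lay just below control replicate 2, and control replicate 3 was by far the lowest array. The log2 fold change was 0.61 (95% interval 0.07 to 1.16, adjusted p = 0.31) and 0.33 without control replicate 3. The tumor suppressor gene APC, the scaffold of that complex, was at 4.22, 4.90 and 4.38 in knockdown cells, against 3.98, 4.42 and 3.74 in control cells. It had a like order of the arrays, with the controls lowest in replicate 3, and a log2 fold change of 0.45 (95% interval -0.06 to 0.96, adjusted p = 0.40) that was 0.25 without knockdown replicate 2 and 0.30 without control replicate 3. The Axin gene AXIN1, the limiting scaffold, had -0.32 (adjusted p = 0.42). The Dishevelled genes DVL1, DVL2 and DVL3, which relay the signal from frizzled, had -0.01, -0.23 and -0.06 (0.37, -0.11 and -0.18 without control replicate 3). DVL1 was the least precise member, with a standard error of 0.45, and control replicate 1 read 0.99 where the other controls read 2.86 and 3.07.

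**Figure D3:**
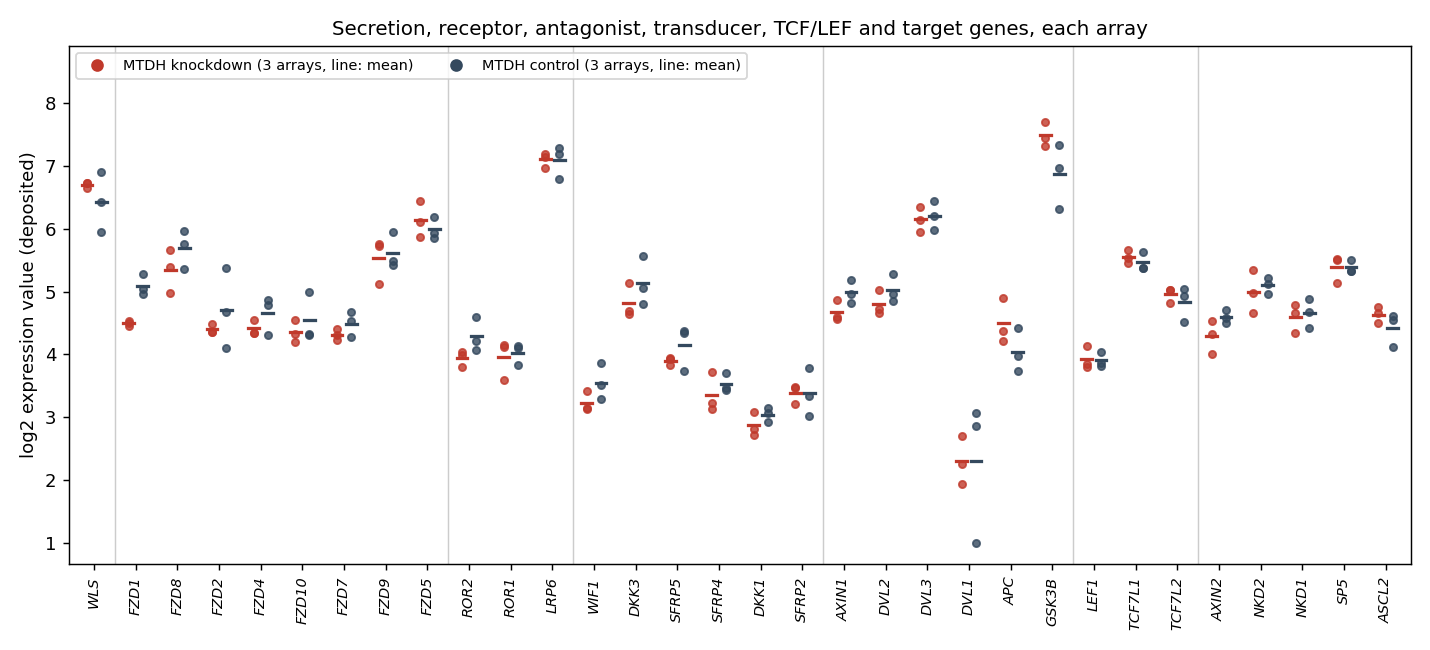
Log2 expression values (vertical axis) on each array of the 32 members other than ligands (horizontal axis), with grey lines between the roles named in the title, in that order with the co-receptors after the frizzleds. Points are arrays, lines are group means, and knockdown (red) is left of control (dark). FZD1, at 4.46 to 4.53 in knockdown cells and 4.96 to 5.28 in control cells, and ROR2 are the genes here whose groups do not overlap.

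The 3 measured TCF/LEF factors, which bring beta-catenin to DNA, all had values close to 0. TCF7L2 was at 4.82, 5.03 and 5.03 in knockdown cells, against 4.94, 4.51 and 5.05 in control cells. TCF7L1 was at 5.53, 5.46 and 5.66 in knockdown cells, against 5.38, 5.38 and 5.64 in control cells. Both pairs of groups overlapped, with log2 fold changes of 0.13 for TCF7L2 (adjusted p = 0.74) and 0.08 for TCF7L1 (adjusted p = 0.81). Without control replicate 3 they were 0.23 and 0.17, and without control replicate 2 TCF7L2 was at -0.03. LEF1, which is itself a target of the pathway, had 0.02 (adjusted p = 0.96).

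The feedback and target genes serve as a readout of the beta-catenin branch, and none of the 5 passed. AXIN2, an Axin that is switched on by beta-catenin and limits it, was at 4.33, 4.01 and 4.53 in knockdown cells, against 4.71, 4.50 and 4.58 in control cells. Only knockdown replicate 3 reached into the control range. Its log2 fold change was -0.31 (95% interval -0.71 to 0.09, adjusted p = 0.45) and -0.17 without knockdown replicate 2. A second row of AXIN2 was at 4.15, 4.06 and 3.98 in knockdown cells, against 4.24, 4.34 and 5.03 in control cells. On that row the groups did not overlap and control replicate 3 was by far the highest array. The difference there was -0.47 (adjusted p = 0.47 in a fit of all rows). SP5, the transcription factor whose promoter window is printed above, was at 5.52, 5.14 and 5.51 in knockdown cells, against 5.33, 5.33 and 5.50 in control cells. The groups overlapped, with a log2 fold change of 0.01 (95% interval -0.38 to 0.39, adjusted p = 0.99). The intestinal stem cell factor ASCL2 was at 4.65, 4.75 and 4.50 in knockdown cells, against 4.54, 4.12 and 4.62 in control cells. It also overlapped, with 0.21 (adjusted p = 0.58), and 0.06 without control replicate 2. NKD1 and NKD2, inhibitors that bind Dishevelled, had -0.07 and -0.11. The median of the 5 was -0.07, and 0.03 after centring, so no direction was settled.

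**Figure D4:**
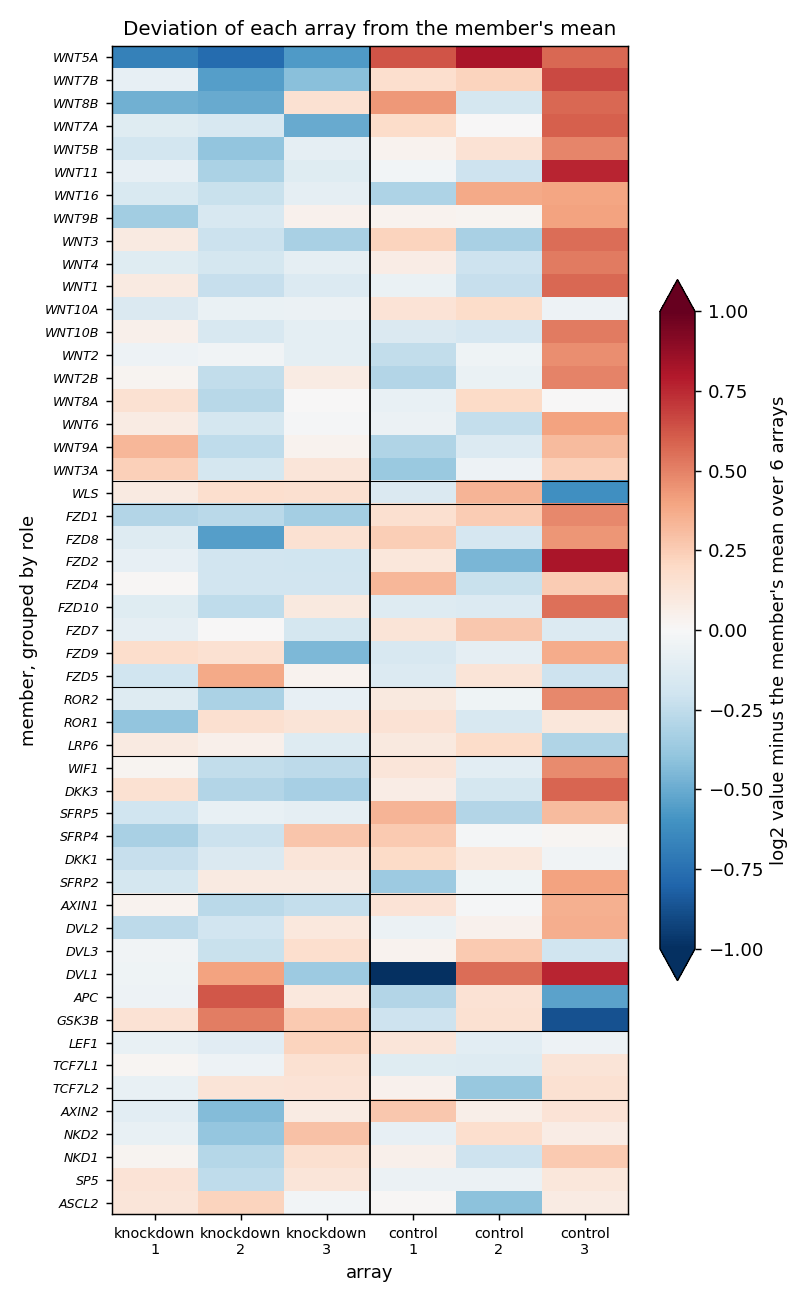
Log2 value of each member (rows, grouped by role) on each array (columns) minus the member's mean over the 6 arrays. Red is higher and blue is lower, and colours are capped at 1 log2 unit. WNT5A, in the top row, is blue in all knockdown arrays and red in all control arrays, whereas many of the other ligands are reddest in control replicate 3, the highest control in 16 of the 19.

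Outside the members, 120 further pathway symbols were listed, some of them second names of a listed gene. Under these symbols 102 genes were measured, 9 of them on the chromosomes the rule leaves out. Of the 102 genes, 3 (2.94%) passed and were lower, where 0.225% of all genes passed and were lower. None passed and was higher, and the median was -0.11. With a count of 3, in lists chosen with results known, nothing is read from that share. LGR5, which binds R-spondins and is switched on by Wnt signalling, was at 5.37, 5.54 and 5.09 in knockdown cells, against 7.25, 6.90 and 6.82 in control cells, a log2 fold change of -1.65 (adjusted p = 0.0046). It was the 1 of 19 receptor regulators that passed, and the others in that list included R-spondins, LGR and Kremen genes. Of 32 other target genes, 2 passed, both lower. MMP7, the protease matrilysin, was at 3.45, 3.78 and 3.31 in knockdown cells, against 4.77, 4.47 and 4.60 in control cells (log2 fold change -1.10, adjusted p = 0.029). CCND1, which encodes cyclin D1, was at 7.57, 7.43 and 7.56 in knockdown cells, against 8.44, 8.60 and 8.33 in control cells (log2 fold change -0.93, adjusted p = 0.034). In all 3 genes every knockdown array lay below every control array. Under the 13 alternatives, applied to them after their values were seen, LGR5 passed in 13, CCND1 in 7 and MMP7 in 6. With all rows fitted the adjusted p was 0.046 for LGR5 and 0.10 for both CCND1 and MMP7. After median centring it was 0.094 for both CCND1 and MMP7. After quantile normalization MMP7 did not pass (adjusted p = 0.074) and CCND1 did (adjusted p = 0.017). Neither CCND1 nor MMP7 passed without control replicate 1 or without any 1 of the knockdown arrays, with adjusted p-values of 0.051 to 0.19.

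None of 13 genes for beta-catenin and its nuclear partners passed. CTNNB1, the beta-catenin gene, was at 7.14, 7.41 and 6.93 in knockdown cells, against 6.96, 7.17 and 6.03 in control cells. Its groups overlapped, control replicate 3 was the lowest array, and the log2 fold change was 0.44 (95% interval -0.17 to 1.05, adjusted p = 0.47), and 0.10 without control replicate 3. The corepressor gene TLE1 had -0.51 (adjusted p = 0.33), and -0.30 without that array. None of 14 further genes of the destruction complex and its regulators passed, the largest values being -0.40 for the kinase gene GSK3A and 0.44 for the tankyrase gene TNKS, which lies on chromosome 8. In the polarity and calcium branch, in which WNT5A acts, none of 24 genes passed and the median was -0.06. The largest values there were 0.73 for RAC1, a small GTPase of the cytoskeleton (95% interval 0.26 to 1.21, adjusted p = 0.20), and 0.62 for the calcium-dependent kinase gene CAMK2D (adjusted p = 0.30).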

How the data were processed

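RNA of 3 samples per group was read on Affymetrix whole-transcript arrays after amplification and biotin labelling. The authors deposited log2 expression values made with Partek Genomics Suite, per the labels and the study's methods. For its version, the background correction, the normalization between arrays and the genome build, the answer is not given in the sources used here. Of 22011 rows, 14432 had 1 gene symbol in the platform annotation, and rows with several symbols (2408) or none (5171) were named by no gene. For each gene the brightest row by its mean on the 6 arrays was used, giving 14232 genes. RefSeq annotation of GRCh38.p14 gave 14208 of them a chromosome and was used for chromosomes, neighbours and promoter windows.

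Groups and replicate numbers came from the sample titles. Knockdown was set against control in limma 3.58.1 under R 4.3.3, on the log2 values as deposited, with a mean per group, moderated variances, and p-values adjusted by Benjamini-Hochberg over the whole table. Fold changes are knockdown over control. Intervals are moderated 95% intervals, unadjusted. The fit was checked on simulated data with known changes. The members and lists were chosen with earlier results of these data known, so gene lists were described by counts and medians beside those of all genes and were not tested. Values of all arrays were given for members that passed, the 2 of each role with the largest absolute log2 fold change and the row with the highest mean. Of 3 members with more than 1 row the second was fitted with all rows. Alternatives were the mean of a gene's rows, all rows, leaving out the dimmest 30% of genes, quantile normalization, median centring, a robust prior with an intensity trend, a block on the replicate number and leaving out each array. The number of arrays limits the precision, and whole-transcript arrays can compress changes of dim genes.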

Additional observations from a re-analysis of the deposited data

How the results depend on the processing

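WNT5A passed in 12 of 13 alternatives, with an adjusted p from 0.0039 to 0.046 and a log2 fold change from -1.34 to -1.23 in the 7 that kept all arrays. With 1 array left out, between 0 and 1 members passed, the 0 without control replicate 1. No other member passed in any alternative. Over all genes the count of 85 (62.4% higher) was 19 with all rows fitted, 48 after median centring and 61 after quantile normalization (47.5% higher), and ran from 12 (without control replicate 1) to 233 (without control replicate 2) with 1 array left out, and was 20, 22 and 20 without knockdown replicates 1, 2 and 3. With the replicate number as a block it was 364. Same-numbered arrays deviated together with correlations of -0.10, 0.47 and 0.31, which does not settle whether the numbers are pairs. The sample titles do not say that they are, so the main fit used no pairing. Under the replicate block WNT5A had an adjusted p of 0.0088. Of 244 values of 19 named members under these alternatives, 230 kept their sign and their side of the threshold, 1 lost the call and 13 changed sign. Of all 51 members, 22 changed sign when at least 1 of the arrays was left out. The 13 were ROR1 (0.049 after quantile normalization and 0.031 after centring) and LRP6 (-0.18 after quantile normalization), and with 1 array left out FZD5 (-0.007 to 0.28), ROR1 (-0.17 to 0.11), LRP6 (-0.14 to 0.11), TCF7L2 (-0.033 to 0.23) and SP5 (-0.062 to 0.13). The cause was not tested.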
